A study of Mus musculus with 16 samples.

Results

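The comparison set myotubes exposed to day serum of mice without Bmal1 in the liver against myotubes exposed to day serum of wild-type mice. It used the 8 libraries so labelled, of 16 in the series, and all genes with expression above a low limit. C2C12 is a mouse muscle cell line whose myoblasts fuse into multinucleated myotubes, and poly-A RNA of such myotubes was sequenced after 24 hr in serum. The serum donors were wild-type mice (WT) or mice in which Bmal1 was deleted only in the liver (Bmal1hep-/-, called LKO here). Serum was collected at zeitgeber time (ZT) 4, in the day, or at ZT16, in the night. WT ZT4 and LKO ZT4, with 4 libraries each, are compared here, and WT ZT16 and LKO ZT16, also with 4 each, serve to ask whether a difference also held under night serum. The myotubes themselves carried no deletion, and all groups shared the cell line and the exposure time. The titles call the 4 libraries of a group biological replicates. Whether each had serum of its own mouse or a separate culture is not given, so a p-value here reflects the spread among these libraries alone. The age and strain of the donors and the Cre line are not stated in what was used here.

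Bmal1 is an activator of the core circadian clock and drives the rhythm of many liver genes, among them genes for secreted proteins and lipid handling. Mice are active at night, so blood taken at ZT4 comes from the rest phase. Serum carries hormones, growth factors, lipoproteins and metabolites, and a cultured muscle cell answers to these through receptors, nutrient sensors and the stress pathways of its organelles.

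Values are FPKM (fragments scaled by transcript length and by the number of mapped fragments), which are per length and so can be set side by side between genes. Differences are LKO minus WT on the log2(FPKM+1) scale, given with the standard error (SE). They understate the change of genes with low FPKM. A gene passed where its Benjamini-Hochberg adjusted p from limma was under 0.05, with 11802 genes tested.

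Myotube identity was present in all 8 libraries. The 10 myotube markers tested summed to 5953 to 7129 FPKM in WT ZT4 and 5437 to 8184 in LKO ZT4. Markers of undifferentiated myoblasts were expressed too, and the 9 tested summed to 495 to 550 FPKM in WT ZT4 and 443 to 552 in LKO ZT4. None of 18 hepatocyte markers was tested, 13 of them were at 0 in all 8 libraries, and their sum was at most 0.174 FPKM. Blood cell markers summed to at most 4.18 FPKM. Depth, estimated relative to the deepest library, was 71.7 to 100% in WT ZT4 and 65.4 to 74.2% in LKO ZT4, and the number of reads was unknown. The LKO ZT4 libraries lay at both ends of the series. Replicate 1 had the highest score on the leading principal component of all 16 libraries, 22.2 against 11.4 for the next, and replicate 4 the lowest, -13.7 against -8.13. Expression of transcripts under 500 nt relative to those over 2000 nt was -0.04, 0.12, -0.11 and 0.21 log2 in LKO ZT4 replicates 1 to 4, against -0.07 to -0.01 in WT ZT4. Replicates 2 and 4 were thus above the WT range and replicate 3 below it. A fit without replicates 2 and 4 therefore keeps a library shifted the other way.

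Under LKO day serum 1 gene passed as higher than under WT day serum (0.00847% of the genes tested). No gene passed as lower (0%). At an unadjusted p under 0.05 from limma, 733 genes were higher (6.21%) and 480 were lower (4.07%). The 4 LKO values all lay above the 4 WT values in 271 genes (2.3%) and all below in 195 (1.65%). The median difference over all tested genes was -0.01, and 47.3% of genes had a difference above 0. With all libraries scaled to the same summed FPKM the median of all genes was -0.07, and list medians moved down with it. Under night serum, 6 genes passed in the same comparison (0.0508%).

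The gene that passed was Snhg6, a non-coding host gene of small nucleolar RNA. Its FPKM was 45.1, 55.3, 48.8 and 44.0 in WT ZT4 replicates 1 to 4 (48.3 ± 5.09, mean ± SD, n = 4) and 70.9, 76.7, 94.2 and 88.1 in LKO ZT4 (82.5 ± 10.6). The lowest LKO library was above the highest WT library. Snhg6 rose by 0.76 ± 0.10 log2 (limma with Benjamini-Hochberg adjustment, adjusted p = 0.0111). It passed under 11 of 19 alternatives, removal of a trend with transcript length among them (0.72, adjusted p = 0.0334). The adjusted p lay between 0.00132 and 0.107, and the highest came when only WT ZT4 and LKO ZT4 were fitted. Without 1 library the adjusted p was 0.0833 (WT ZT4 replicate 1), 0.0562 (WT ZT4 replicate 3), 0.0853 (WT ZT4 replicate 4), 0.0605 (LKO ZT4 replicate 3) or 0.0510 (LKO ZT4 replicate 4), so the call was lost each time, while the difference stayed between 0.68 and 0.83 in all 19 alternatives. The gene's annotated transcripts are short, with a median of 559 nt. Among 13 tested host genes of small nucleolar RNA, 6 had a difference above 0 and the median was -0.01 (-0.08 to 0.05 over the alternatives). By limma 2 were higher at an unadjusted p under 0.05 (all genes, 6.21%), Snhg6 and Snhg18 (0.38, adjusted p = 0.319). Gas5, another such host gene, was at 11.4 ± 0.493 FPKM in WT ZT4 and 10.01 ± 2.12 in LKO ZT4 (-0.20 ± 0.12, adjusted p = 0.594).

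Of the 9 named higher genes that came next by p, 3 act in protein glycosylation, protein modification at the endoplasmic reticulum (ER) and vesicle traffic. None of them passed. Krtcap2 encodes a subunit of the oligosaccharyltransferase that attaches N-glycans. It was at 298, 350, 321 and 315 FPKM in WT ZT4 and at 436, 403, 451 and 443 in LKO ZT4, and the groups did not overlap. The difference was 0.43 ± 0.07 (adjusted p = 0.0547). Cdk5rap3, part of the ligase that attaches the ubiquitin-like protein UFM1, was at 19.7, 20.3, 19.7 and 21.9 FPKM in WT ZT4 and at 28.2, 27.3, 25.7 and 26.2 in LKO ZT4. Again all LKO libraries were above all WT libraries (0.38 ± 0.06, adjusted p = 0.0650). Cope, a subunit of the COPI vesicle coat, was at 79.7, 71.1, 68.2 and 81.3 FPKM in WT ZT4 and at 106, 96.1, 95.9 and 99.6 in LKO ZT4. These groups were apart too (0.40 ± 0.07, adjusted p = 0.0754). Krtcap2 passed under 5 of 19 alternatives, Cdk5rap3 and Cope under 1 each.

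The other genes in that order were Rps27rt, Isg15, Cbr2, Tbcb, Dnpep and Cdk2ap2, with differences from 0.35 (Tbcb) to 0.72 (Isg15). Tbcb, a tubulin folding cofactor, was at 44.7 ± 3.87 FPKM in WT ZT4 and 57.2 ± 3.53 in LKO ZT4 (0.35 ± 0.07, adjusted p = 0.148). Dnpep, an aminopeptidase, was at 38.0 ± 3.75 and 54.1 ± 7.86 FPKM (0.49 ± 0.10, adjusted p = 0.148). Cbr2, a carbonyl reductase, was at 18.4 ± 1.62 and 26.4 ± 3.01 FPKM (0.50 ± 0.10, adjusted p = 0.139). Cdk2ap2, which binds the kinase Cdk2, was at 163 ± 16.7 and 236 ± 23.1 FPKM (0.53 ± 0.11, adjusted p = 0.148). In each of these 4 genes the groups did not overlap.

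**Figure D1:**
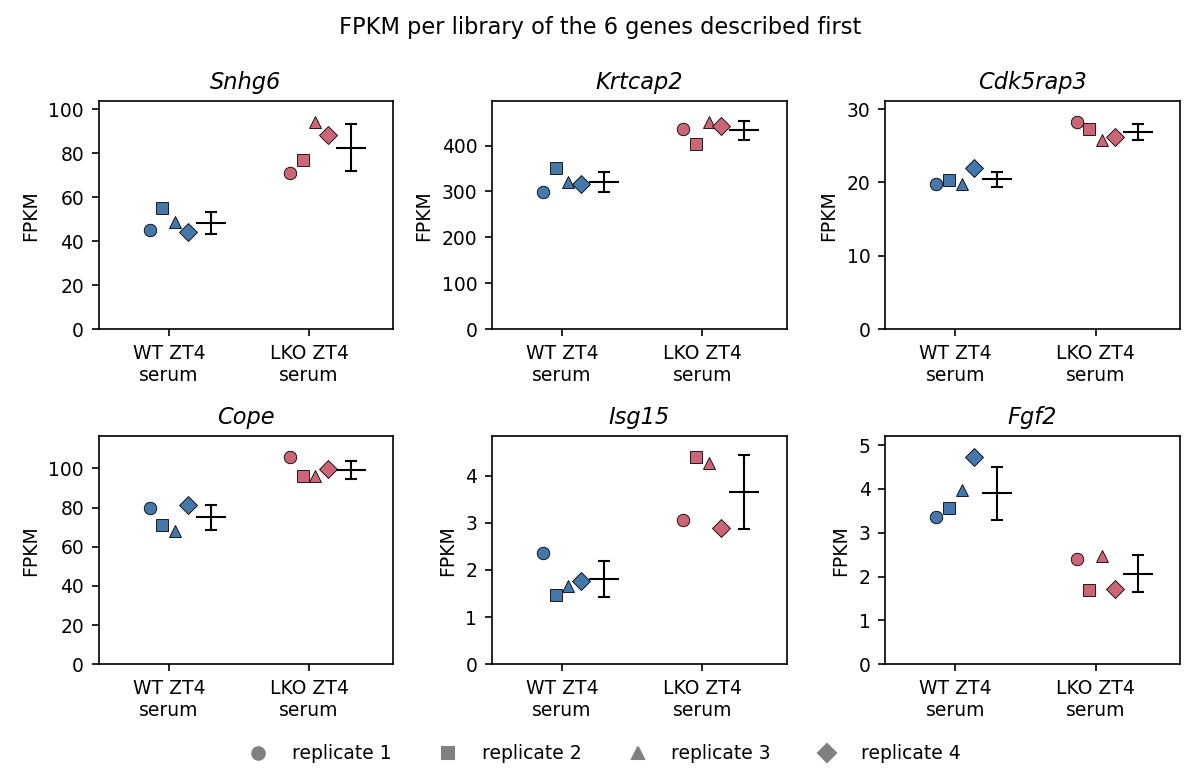
FPKM (vertical axis, from 0) of 6 genes in the 4 WT ZT4 and 4 LKO ZT4 libraries. Symbols mark replicates, and bars show mean ± SD. The groups do not overlap in any of the 6. Snhg6 passed (0.76 ± 0.10), and the others did not.

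The ER folds secreted and membrane proteins. Unfolded protein in it activates the sensors of the unfolded protein response, which raise transcription of chaperones, disulfide isomerases and the machinery that returns misfolded protein to the cytosol. In 3 of the 4 LKO day serum libraries these genes stood above WT ZT4 as a group, in graded steps, and in the fourth they stood at WT level. All 16 tested ER chaperones and cofactors had a difference above 0 (all genes, 47.3%), with a median of 0.69. None passed (limma, smallest adjusted p = 0.264), 15 were higher at an unadjusted p under 0.05 (all genes, 6.21%), and 5 had groups that did not overlap (all genes, 2.3%). The mean of the list relative to WT ZT4 was 1.32, 0.69, 0.56 and 0.09 log2 in LKO ZT4 replicates 1 to 4, and the WT ZT4 libraries lay between -0.15 and 0.09. Without replicate 1 the median was 0.44, without replicate 4 it was 0.95, and without replicates 2 and 4 it was 1.05. Since these are bulk samples, a change in the share of cells that express a gene and a change of RNA per cell cannot be told apart.

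Hspa5 encodes BiP, the main chaperone of the ER lumen. It was at 512, 417, 536 and 548 FPKM in WT ZT4 and at 2570, 1162, 1011 and 555 in LKO ZT4. Replicate 1 was far above the rest, and replicate 4 was just above the highest WT library. The difference was 1.18 ± 0.37 (adjusted p = 0.304). Sdf2l1, a cofactor of BiP, was at 33.2, 28.5, 36.5 and 42.4 FPKM in WT ZT4 and at 211, 104, 81.4 and 43.9 in LKO ZT4 (1.41 ± 0.40, adjusted p = 0.264). The order of the libraries was that of Hspa5. Creld2, an ER resident induced by misfolded protein, was at 56.9, 48.4, 61.1 and 61.1 FPKM in WT ZT4 and at 271, 148, 108 and 68.7 in LKO ZT4 (1.20 ± 0.37, adjusted p = 0.304). Manf, a secreted ER stress factor, was at 102 ± 12.01 FPKM in WT ZT4 and 211 ± 98.1 in LKO ZT4 (0.93 ± 0.28, adjusted p = 0.301). The BiP cochaperones Dnajb9 and Dnajb11 differed by 0.84 ± 0.24 (adjusted p = 0.264) and 0.61 ± 0.18 (adjusted p = 0.284), and in Dnajb9 the groups overlapped. Sil1, the nucleotide exchange factor of BiP, differed least of the chaperones named, at 18.2 ± 1.16 and 21.1 ± 1.55 FPKM (0.20 ± 0.06, adjusted p = 0.284).

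Of 15 disulfide isomerases and ER oxidases tested, 13 had a difference above 0, with a median of 0.32. No member passed (limma, smallest adjusted p = 0.273), and 7 were higher at an unadjusted p under 0.05 (all genes, 6.21%). Pdia4 was at 101, 90.1, 106 and 112 FPKM in WT ZT4 and at 439, 228, 184 and 102 in LKO ZT4. Here LKO ZT4 replicate 4 lay inside the WT range (1.02 ± 0.34, adjusted p = 0.319). Pdia6 was at 201 ± 18.2 and 358 ± 157 FPKM (0.74 ± 0.24, adjusted p = 0.308), and its groups overlapped. Pdia5 and Pdia3 had no overlap and differed by 0.63 ± 0.18 (adjusted p = 0.273) and 0.61 ± 0.20 (adjusted p = 0.312). The median of the list was 0.13 without LKO ZT4 replicate 1 and 0.51 without replicate 4. It was 0.65 without replicates 2 and 4 and 0.17 with only transcripts of at least 1000 nt.

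All 18 tested genes of the unfolded protein response sensors and of ER-associated degradation had a difference above 0, with a median of 0.33. By limma no gene of the list passed (smallest adjusted p = 0.203), and 11 were higher at an unadjusted p under 0.05 (all genes, 6.21%). Edem2, a mannosidase of ER-associated degradation, was at 11.1, 10.1, 11.4 and 12.3 FPKM in WT ZT4 and at 19.6, 14.4, 13.97 and 13.6 in LKO ZT4. All LKO libraries were above all WT libraries, with replicate 1 far above the other 3 (0.41 ± 0.09, adjusted p = 0.203). Syvn1, the ubiquitin ligase of this route, was at 17.8 ± 2.35 and 33.8 ± 15.5 FPKM (0.81 ± 0.25, adjusted p = 0.304). Its partner Sel1l was at 20.4 ± 2.62 and 36.5 ± 17.1 FPKM (0.70 ± 0.24, adjusted p = 0.343), with LKO ZT4 replicate 4 inside the WT range. Herpud1, a membrane protein of the same complex, differed by 0.72 ± 0.25 (adjusted p = 0.339), and Vimp (selenoprotein S) by 0.64 ± 0.18 (adjusted p = 0.264). Xbp1, the transcription factor that the sensor Ire1 activates by splicing, was at 62.0, 55.4, 51.4 and 62.3 FPKM in WT ZT4 and at 94.1, 73.2, 77.5 and 66.1 in LKO ZT4. The groups did not overlap (0.41 ± 0.13, adjusted p = 0.304), and the values do not separate the spliced from the unspliced form. The median of the list was 0.19 without LKO ZT4 replicate 1 and 0.43 without replicate 4.

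**Figure D2:**
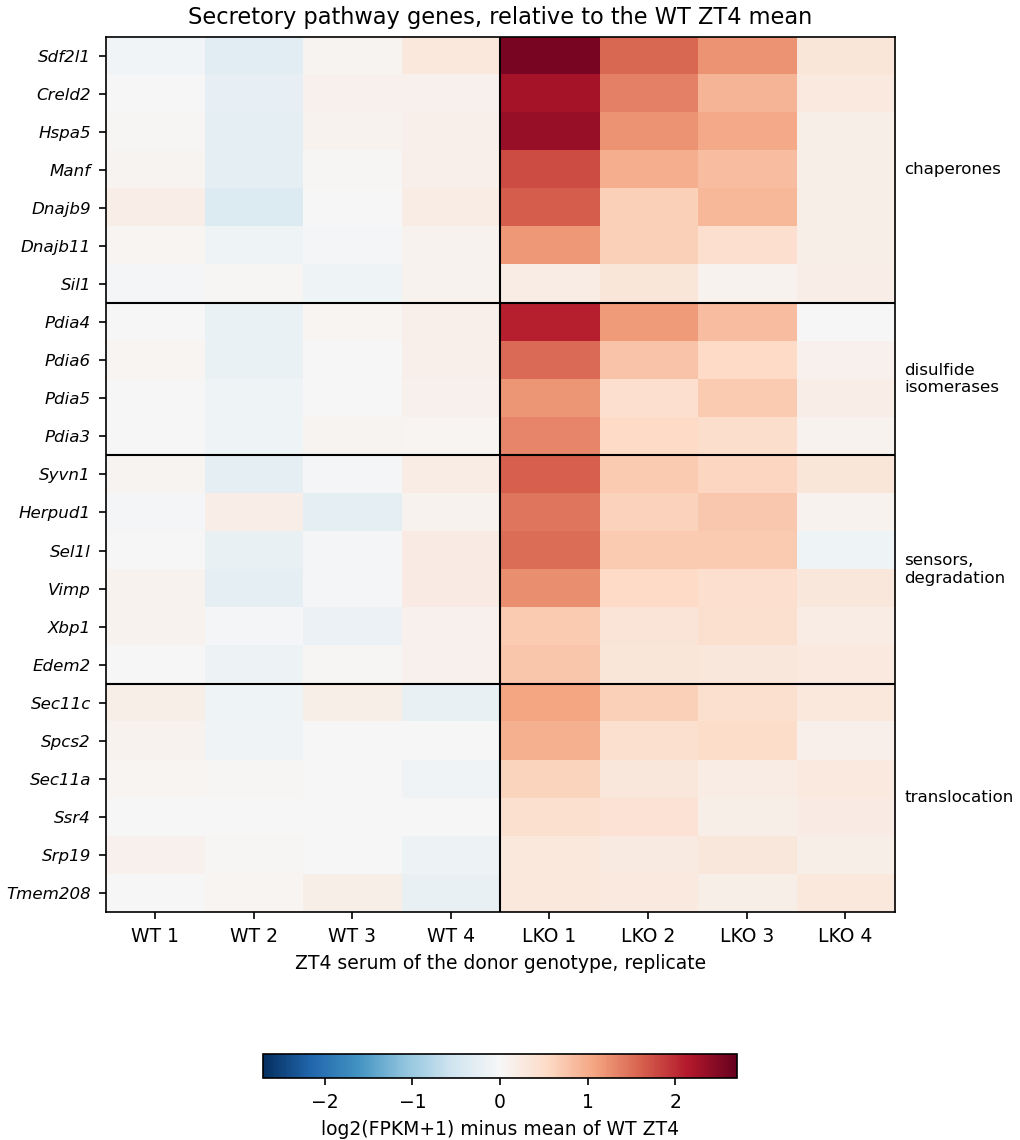
Colour gives log2(FPKM+1) minus the mean of the 4 WT ZT4 libraries for 23 named genes of the secretory pathway (rows) in the 8 libraries (columns). LKO ZT4 replicate 1 is highest in nearly all rows, replicates 2 and 3 are intermediate, and replicate 4 is close to WT ZT4. Sdf2l1 has the largest difference (1.41 ± 0.40).

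Promoter sequence was read for these genes because they stood above WT together. The ER stress response element, CCAAT followed after 9 bases of any kind by CCACG, is bound by NF-Y and by ATF6 or XBP1. It was searched on both strands in RefSeq windows from 250 bases before to 50 bases after the annotated start (GRCm38.p6). A match lay in 37 of 27025 genes with a window (0.137%) and in 15 of the 9012 tested genes with a window (0.166%). It lay in 6 of the 12 ER chaperone genes with a window, in 1 of 11 disulfide isomerases and oxidases, in 1 of 13 sensor and degradation genes, and in 0 of 21 ER translocation genes. The chaperones with a match were Calr, Canx, Creld2, Dnajc3, Hsp90b1 and Hspa5. Their median difference was 0.82 (0.33 to 1.20), against 0.43 (0.15 to 1.41) in the 6 without one, so the ranges overlapped. Sdf2l1, with the largest difference of these 12 genes, had no match. A match is a description of the window, and binding was not measured. Of the genes below, Hspa5 and Creld2 are the chaperones described above with a match, Pdia6 is the isomerase and Syvn1 the degradation gene with one. All lie upstream of the start, on the + strand of the genome, and are shown 5′ to 3′ with the match in capitals. The Hspa5 stretch is chr2:34771995-34772073, that of Creld2 is chr15:88819490-88819568 with the match on the opposite strand, that of Pdia6 is chr12:17266461-17266539 and that of Syvn1 is chr19:6046502-6046575.
Hspa5: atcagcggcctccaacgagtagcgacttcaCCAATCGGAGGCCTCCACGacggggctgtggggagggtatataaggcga
Creld2: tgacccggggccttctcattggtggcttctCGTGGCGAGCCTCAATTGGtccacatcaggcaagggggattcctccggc
Pdia6: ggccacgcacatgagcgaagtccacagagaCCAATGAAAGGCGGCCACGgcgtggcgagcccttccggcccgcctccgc
Syvn1: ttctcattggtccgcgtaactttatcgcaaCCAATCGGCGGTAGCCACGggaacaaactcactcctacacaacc
The matches end 47 bases (Hspa5), 108 bases (Creld2), 80 bases (Pdia6) and 26 bases (Syvn1) before the start.

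Proteins enter the ER through the Sec61 channel after recognition by the signal recognition particle, and the signal peptidase then removes the signal peptide. Of 30 tested genes of this entry route, 29 had a difference above 0, with a median of 0.23. The limma test called no member (smallest adjusted p = 0.203). An unadjusted p under 0.05 was reached by 20, all higher, against 6.21% of all genes, and 9 had groups without overlap with LKO higher, against 2.3% of all genes. The mean of the list was 0.45, 0.22, 0.17 and 0.11 log2 in LKO ZT4 replicates 1 to 4 and between -0.05 and 0.05 in WT ZT4, so all 4 LKO libraries were above all WT libraries. The median was 0.16 without LKO ZT4 replicate 1 and 0.24 without replicate 4.

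Signal peptidase showed this in its catalytic subunits. Sec11a was at 73.3, 71.9, 70.0 and 65.7 FPKM in WT ZT4 and at 107, 87.5, 81.1 and 84.9 in LKO ZT4 (0.35 ± 0.08, adjusted p = 0.203). Its homologue Sec11c was at 48.2, 39.5, 48.6 and 37.4 FPKM in WT ZT4 and at 91.9, 67.7, 58.8 and 52.7 in LKO ZT4 (0.61 ± 0.14, adjusted p = 0.208). In both genes every LKO library exceeded every WT library. Spcs2, a non-catalytic subunit of the peptidase, differed by 0.51 ± 0.14 (adjusted p = 0.264). Ssr4, a subunit of the translocon-associated complex, was at 161, 161, 161 and 164 FPKM in WT ZT4 and at 219, 211, 180 and 187 in LKO ZT4. The WT libraries were nearly level and all LKO libraries were above them (0.30 ± 0.07, adjusted p = 0.203). Srp19, a protein of the signal recognition particle, was at 84.1 ± 6.13 and 99.8 ± 4.03 FPKM, also without overlap (0.25 ± 0.06, adjusted p = 0.216).

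Ddit3 encodes the stress transcription factor CHOP, and the targets of ATF4 include the amino acid and integrated stress response genes. Among the LKO libraries Ddit3, Trib3 and the mean of the ATF4 targets had the order of the chaperones, but WT ZT4 replicate 2 was high as well. Ddit3 was at 17.3, 40.8, 18.1 and 19.6 FPKM in WT ZT4 and at 117, 44.7, 36.2 and 24.5 in LKO ZT4 (1.02 ± 0.40, adjusted p = 0.406). WT ZT4 replicate 2 was above 2 of the LKO libraries. Trib3, a pseudokinase induced by ATF4 and CHOP, was at 13.3, 68.8, 10.5 and 17.1 FPKM in WT ZT4 and at 69.8, 25.7, 19.9 and 15.6 in LKO ZT4 (0.41 ± 0.48, adjusted p = 0.809). Chac1, a glutathione-degrading enzyme, was highest in a WT library, at 40.3, 130, 34.9 and 48.8 FPKM in WT ZT4 and at 68.3, 53.3, 39.1 and 50.4 in LKO ZT4 (-0.08 ± 0.29, adjusted p = 0.950). Of 33 ATF4 targets tested, 24 had a difference above 0, with a median of 0.07, which was 0.25 without WT ZT4 replicate 2. Omission of LKO ZT4 replicate 1 turned it to -0.04, and omission of LKO ZT4 replicate 4 gave 0.14. None passed (limma, smallest adjusted p = 0.406), and 2 were higher at an unadjusted p under 0.05 (all genes, 6.21%), a share near that of all genes. The mean of the list was 0.55 log2 in WT ZT4 replicate 2 and 0.58 in LKO ZT4 replicate 1, and between -0.29 and 0.04 in the other 6 libraries. Gdf15, a secreted stress hormone, was at 33.4 ± 13.8 and 40.8 ± 14.4 FPKM (0.29 ± 0.26, adjusted p = 0.736).

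**Figure D3:**
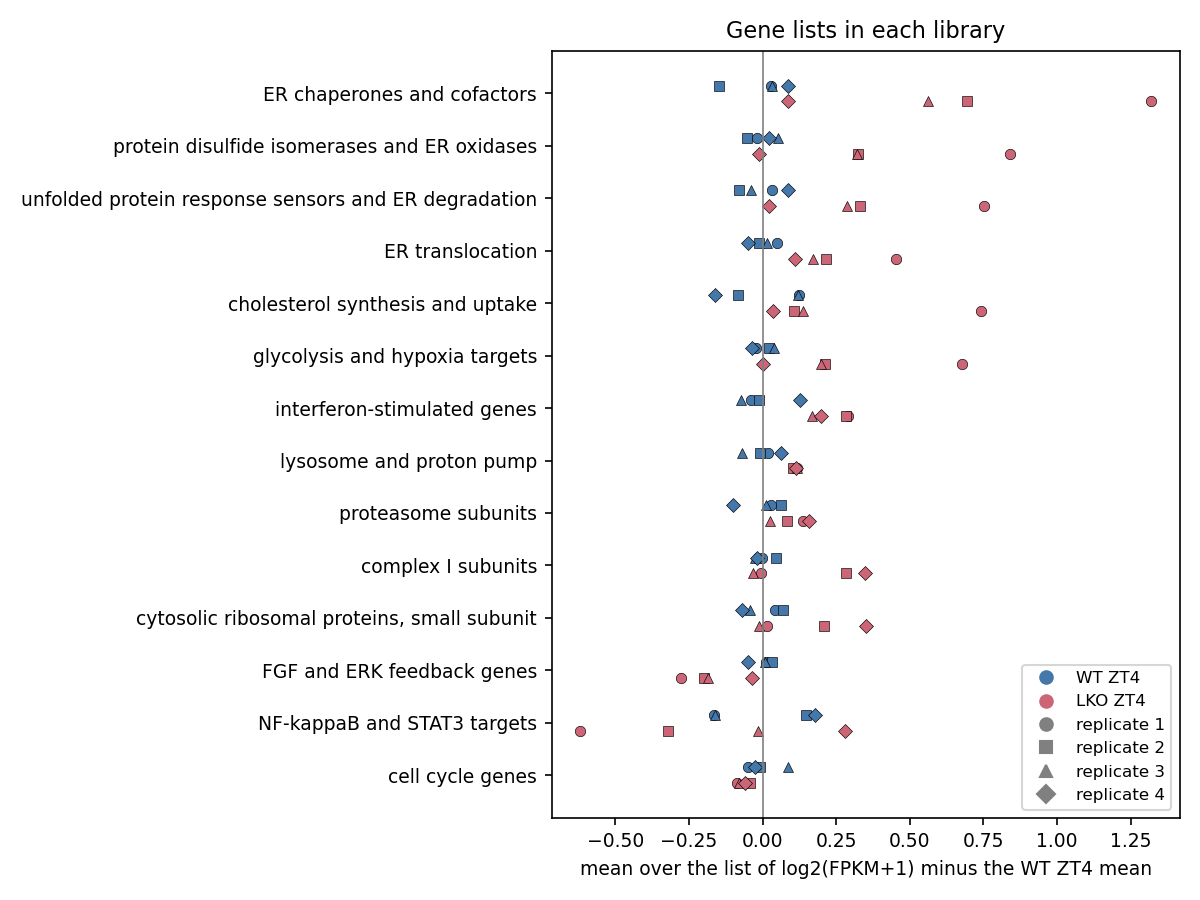
Mean of 14 gene lists in each library (horizontal axis, log2(FPKM+1) minus the mean of WT ZT4). Symbols mark replicates. The 4 LKO libraries are close together for lysosomal genes (0.10 to 0.12) and far apart for ER chaperones (0.09 to 1.32).

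Interferon-stimulated genes encode antiviral proteins and parts of antigen presentation. Of 32 listed, only 16 averaged 0.5 FPKM or more and were tested. A difference above 0 was found in 14 of the 16, with a median of 0.20 (0.15 to 0.28 over the alternatives). No member passed (limma, smallest adjusted p = 0.122), 6 were higher at an unadjusted p under 0.05 (all genes, 6.21%), and 4 had groups without overlap (all genes, 2.3%). The mean of the list was 0.29, 0.28, 0.17 and 0.20 log2 in LKO ZT4 replicates 1 to 4 and at most 0.13 in WT ZT4. Isg15, a ubiquitin-like modifier, was at 2.35, 1.47, 1.66 and 1.77 FPKM in WT ZT4 and at 3.06, 4.39, 4.27 and 2.89 in LKO ZT4. The groups did not overlap (0.72 ± 0.13, adjusted p = 0.122), and the gene passed without LKO ZT4 replicate 1 (adjusted p = 0.0472). Irf9, the DNA-binding subunit of the interferon-activated complex ISGF3, was at 3.08, 3.85, 3.08 and 3.53 FPKM in WT ZT4 and at 5.02, 4.57, 5.11 and 4.04 in LKO ZT4 (0.37 ± 0.09, adjusted p = 0.234). H2-D1, a class I antigen-presenting protein, was at 17.5 ± 1.92 and 24.9 ± 3.44 FPKM (0.48 ± 0.11, adjusted p = 0.203), and the counting may split its reads with near-identical class I genes. Ddx58, the RNA sensor RIG-I, was at 1.27 ± 0.233 and 1.83 ± 0.180 FPKM (0.32 ± 0.12, adjusted p = 0.362). In Irf9, H2-D1 and Ddx58 all LKO libraries were above all WT libraries. Stat2, the partner of Irf9 in ISGF3, overlapped between the groups (0.24 ± 0.10, adjusted p = 0.447).

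The core of the interferon-stimulated response element, GAAA followed after 2 bases of any kind by GAAA, on either strand, was found in 5 of the 13 tested interferon-stimulated genes with a window. It was found in 302 of the 9012 tested genes with a window (3.35%). The 5 genes were B2m, Bst2, Ddx58, Isg15 and Stat2. Isg15 is shown because it had the smallest p of the list, and Stat2 as a second gene with an upstream match. Matches are in capitals, 5′ to 3′ in the direction of the gene. The Isg15 stretch is chr4:156200845-156200926 on the - strand and holds 3 overlapping matches, and that of Stat2 is chr10:128270248-128270315 on the + strand, with 1 match on the opposite strand.
Isg15: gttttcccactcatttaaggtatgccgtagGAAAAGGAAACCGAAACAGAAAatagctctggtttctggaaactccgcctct
Stat2: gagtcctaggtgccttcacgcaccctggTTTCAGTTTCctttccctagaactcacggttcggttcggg
The match nearest the start ends 57 bases before it in Isg15 and 213 bases before it in Stat2.

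Lysosomes degrade proteins, glycans and lipids at a low pH kept by the vacuolar proton pump. Their genes had small differences, and the mean of the list, though not each gene, was alike in all LKO libraries. Of 34 tested, 31 had a difference above 0, with a median of 0.11 (0.04 where all libraries were scaled to the same summed FPKM). By limma no gene of the list passed (smallest adjusted p = 0.237), 10 had an unadjusted p under 0.05, all higher (all genes, 6.21%), and 4 had no overlap (all genes, 2.3%). The mean of the list was between 0.10 and 0.12 log2 in the 4 LKO ZT4 libraries and between -0.07 and 0.06 in WT ZT4. Hexa, a hexosaminidase of ganglioside breakdown, was at 71.7, 66.9, 62.1 and 69.7 FPKM in WT ZT4 and at 76.5, 79.4, 77.6 and 78.3 in LKO ZT4 (0.20 ± 0.05, adjusted p = 0.237). Ctsd, the protease cathepsin D, was at 355, 315, 306 and 343 FPKM in WT ZT4 and at 393, 380, 380 and 407 in LKO ZT4 (0.24 ± 0.07, adjusted p = 0.238). Atp6v0d1, a subunit of the pump's membrane part, was at 40.3 ± 2.52 and 45.7 ± 1.97 FPKM (0.18 ± 0.05, adjusted p = 0.297). The groups did not overlap in these 3 genes.

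CACGTG, the E-box that TFEB and also BMAL1 with CLOCK can bind, was found in 12 of the 27 lysosomal genes with a window and in 1091 of the 9012 tested genes with one (12.1%). The motif is its own reverse complement. The median difference of the 12 genes was 0.16 (0.02 to 0.28), and that of the 15 without it was 0.10 (-0.04 to 0.26), so the ranges overlapped. Ctsd is shown as a described gene with 2 matches. The stretch is chr7:142387890-142388077 on the - strand, and the match nearer the start ends 93 bases before it.
Ctsd: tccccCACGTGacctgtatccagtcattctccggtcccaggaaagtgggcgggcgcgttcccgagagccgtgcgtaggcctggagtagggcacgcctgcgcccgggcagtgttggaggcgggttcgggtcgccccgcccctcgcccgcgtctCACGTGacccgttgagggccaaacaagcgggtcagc

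Proteasome subunits, which form the main protease of the cytosol, had a difference above 0 in 30 of 32 tested genes, with a median of 0.10 (0.03 where all libraries were scaled to the same summed FPKM). The limma test called no member (smallest adjusted p = 0.216), 12 had an unadjusted p under 0.05, all higher (all genes, 6.21%), and 4 had no overlap (all genes, 2.3%). The list mean was 0.14, 0.08, 0.03 and 0.16 log2 in LKO ZT4 replicates 1 to 4 and -0.10 to 0.06 in WT ZT4, so LKO ZT4 replicate 3 lay inside the WT range. Psmb4, a subunit of the core particle, was at 281, 289, 293 and 269 FPKM in WT ZT4 and at 333, 322, 315 and 379 in LKO ZT4. Every LKO library was above every WT library (0.25 ± 0.06, adjusted p = 0.216). Psma2, another core subunit, was at 236 ± 14.8 and 270 ± 10.3 FPKM (0.19 ± 0.06, adjusted p = 0.284).

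Lipid and hypoxia genes stood highest in LKO ZT4 replicate 1. All 25 tested genes of cholesterol synthesis and uptake had a difference above 0, with a median of 0.25, which was 0.10 without LKO ZT4 replicate 1 and 0.42 without replicates 2 and 4. None passed (limma, smallest adjusted p = 0.305), and 4 were higher at an unadjusted p under 0.05 (all genes, 6.21%). Their mean was 0.74 log2 in LKO ZT4 replicate 1 and 0.04 to 0.14 in the other 3, and the highest WT library was at 0.12. Fdps, a synthase of isoprenoid precursors, was at 228, 207, 215 and 176 FPKM in WT ZT4 and at 444, 270, 279 and 240 in LKO ZT4 (0.54 ± 0.22, adjusted p = 0.429). Dhcr7, which makes cholesterol in the last step of its pathway, was at 31.2 ± 1.57 and 37.4 ± 2.68 FPKM (0.25 ± 0.08, adjusted p = 0.308). The groups were apart in both genes. Plin2, which coats lipid droplets and rises with fatty acid load, was at 592, 663, 588 and 600 FPKM in WT ZT4 and at 1038, 769, 847 and 675 in LKO ZT4, also without overlap (0.43 ± 0.20, adjusted p = 0.469).

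Of 24 genes of glycolysis and hypoxia tested, 22 had a difference above 0, with a median of 0.19, which was 0.08 without LKO ZT4 replicate 1, 0.31 without replicates 2 and 4 and 0.11 with all libraries scaled to the same summed FPKM. No member passed (limma, smallest adjusted p = 0.264), and 6 were higher at an unadjusted p under 0.05 (all genes, 6.21%). P4ha2, a collagen prolyl hydroxylase, was at 18.7, 16.7, 16.8 and 18.3 FPKM in WT ZT4 and at 42.5, 26.6, 26.8 and 19.4 in LKO ZT4 (0.63 ± 0.17, adjusted p = 0.264). The order of the LKO libraries was close to that of the ER chaperones. Bnip3, a mitophagy receptor induced by hypoxia, was at 9.65, 12.2, 13.7 and 14.9 FPKM in WT ZT4 and at 52.1, 19.4, 23.3 and 11.6 in LKO ZT4 (0.83 ± 0.36, adjusted p = 0.448). Slc2a1, the glucose transporter GLUT1, was at 48.5 ± 2.91 and 69.7 ± 26.2 FPKM (0.45 ± 0.19, adjusted p = 0.432). Both overlapped between the groups.

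Short transcripts of the ribosome and of the respiratory chain were higher in LKO ZT4 replicates 2 and 4, the libraries with the highest level of short relative to long transcripts. Of the small-subunit ribosomal proteins 31 of 32 had a difference above 0 (median 0.12), and of the large-subunit ones 41 of 47 (median 0.08). No gene of either list passed (limma, smallest adjusted p = 0.157 and 0.304). In each list 9 were higher at an unadjusted p under 0.05 (all genes, 6.21%). The small-subunit mean was 0.02, 0.21, -0.01 and 0.35 log2 in LKO ZT4 replicates 1 to 4, and without replicates 2 and 4 the small- and large-subunit medians were 0.02 and -0.02. Without replicate 4 alone they were 0.06 and 0.04. With a trend of expression with transcript length removed from each library they were 0.09 and 0.05, and with all libraries scaled to the same summed FPKM 0.04 and 0.01. Rps21, a protein of the small subunit, was at 1754, 2135, 1937 and 1624 FPKM in WT ZT4 and at 2139, 3577, 2712 and 3956 in LKO ZT4 (0.70 ± 0.15, adjusted p = 0.157). Rps27rt, a retrotransposed copy of Rps27, was at 2997, 2884, 2862 and 2757 FPKM in WT ZT4 and at 3322, 4952, 4562 and 5798 in LKO ZT4 (0.67 ± 0.12, adjusted p = 0.0754). In both genes the groups were apart. Ribosomal protein genes have near-identical processed copies, between which the counting may split reads, so single values are uncertain.

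Complex I is the entry point of electrons from NADH to the respiratory chain. Of its 36 nuclear-encoded subunits, 34 had a difference above 0, with a median of 0.14 that turned to -0.02 without LKO ZT4 replicates 2 and 4. It was 0.09 without replicate 2, 0.08 without replicate 4, 0.11 with the length trend removed and 0.07 with the same summed FPKM. By limma no gene of the list passed (smallest adjusted p = 0.304), and 10 were higher at an unadjusted p under 0.05 (all genes, 6.21%). Ndufa3 was at 152, 159, 157 and 158 FPKM in WT ZT4 and at 176, 291, 162 and 268 in LKO ZT4 (0.47 ± 0.15, adjusted p = 0.316). The 2 high values were those of replicates 2 and 4. Ndufa8 was at 115, 119, 130 and 122 FPKM in WT ZT4 and nearly level at 140, 134, 141 and 140 in LKO ZT4 (0.19 ± 0.06, adjusted p = 0.305). For complexes II to V, 33 of 43 subunits had a difference above 0, with a median of 0.08 that turned to -0.05 without replicates 2 and 4. Leaving out 1 LKO library gave 0.02 (replicate 2), 0.16 (replicate 3) or 0.03 (replicate 4). The median was 0.05 with the length trend removed, 0.003 with the same summed FPKM and -0.004 with only transcripts of at least 1000 nt. None of these passed (limma, smallest adjusted p = 0.264), and 11 were higher at an unadjusted p under 0.05 (all genes, 6.21%). Mitochondrial ribosomal proteins had a difference above 0 in 44 of 77 genes, with a median of 0.03 that turned to -0.06 without replicates 2 and 4, to -0.04 with the same summed FPKM and to -0.005 with only transcripts of at least 1000 nt. TCA cycle enzymes had one in 9 of 18 (median -0.01, and -0.08 to 0.02 over the alternatives). Enzymes of fatty acid oxidation had one in 13 of 18, with a median of 0.03 that turned to -0.04 with the same summed FPKM and was 0.001 without LKO ZT4 replicate 4.

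**Figure D4:**
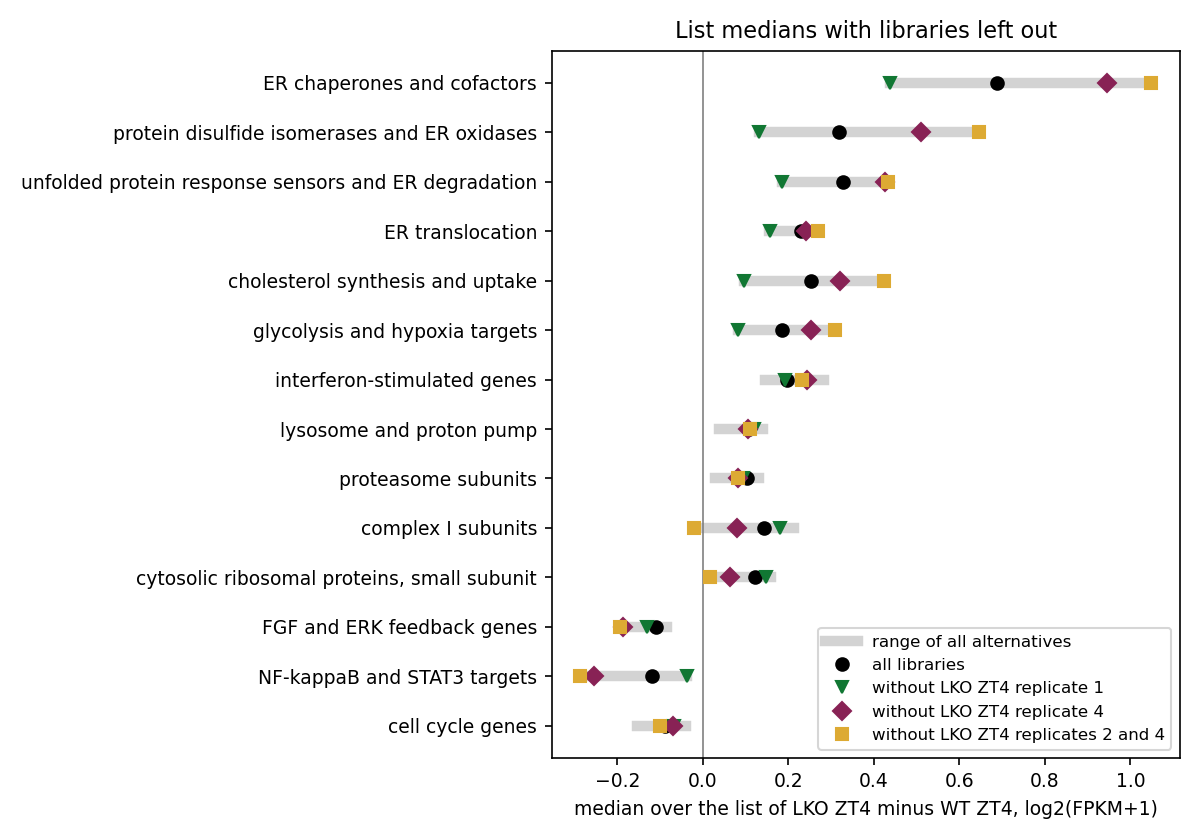
Median difference of LKO ZT4 minus WT ZT4 (horizontal axis, log2(FPKM+1)) for 14 gene lists with all libraries, without LKO ZT4 replicate 1, without replicate 4 and without replicates 2 and 4. Grey bars span all alternatives run. ER chaperones range from 0.44 to 1.05 and complex I subunits from -0.02 to 0.21.

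Among the named lower genes, the growth factor Fgf2 had the smallest p. It signals through receptor tyrosine kinases to ERK and keeps myoblasts undifferentiated. Its FPKM was 3.35, 3.55, 3.97 and 4.73 in WT ZT4 and 2.39, 1.70, 2.46 and 1.71 in LKO ZT4. Every LKO library was below every WT library (-0.68 ± 0.14, adjusted p = 0.157). Spred2 and Spred1, inhibitors of Ras and ERK, were lower without overlap. Spred2 was at 21.4, 23.4, 21.8 and 22.3 FPKM in WT ZT4 and at 19.8, 20.7, 17.5 and 16.01 in LKO ZT4 (-0.26 ± 0.07, adjusted p = 0.237). Spred1 was at 20.3 ± 1.03 and 17.5 ± 0.791 FPKM (-0.20 ± 0.06, adjusted p = 0.305). Dusp6, the phosphatase of ERK, overlapped between the groups, at 29.3 ± 3.44 and 24.3 ± 4.24 FPKM (-0.27 ± 0.12, adjusted p = 0.453). Of 17 FGF and ERK feedback genes tested, 2 had a difference above 0, with a median of -0.11, which was -0.19 without LKO ZT4 replicate 4 and -0.18 without WT ZT4 replicate 4. The limma test called no member (smallest adjusted p = 0.157), and 4 were lower at an unadjusted p under 0.05 (all genes, 4.07%). Groups without overlap were found in 3, all 3 lower, against 1.65% of all genes. The mean of the list was -0.28, -0.20, -0.18 and -0.04 log2 in LKO ZT4 replicates 1 to 4, so replicate 4 was again nearest to WT.

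Besides Fgf2 and Spred2, the lower genes with the smallest p were Rasa3, Eml1, Ebf3, Ube2a, Kansl1l, Wdhd1, Efcab2 and Xiap. Rasa3, which switches off Ras-type GTPases, was at 42.4, 43.9, 41.1 and 42.2 FPKM in WT ZT4 and at 34.0, 35.7, 38.6 and 36.7 in LKO ZT4 (-0.22 ± 0.05, adjusted p = 0.203). Eml1, a microtubule-binding protein, was at 23.4 ± 0.840 and 19.9 ± 0.528 FPKM (-0.22 ± 0.05, adjusted p = 0.216). The transcription factor Ebf3 was at 4.18 ± 0.432 and 3.19 ± 0.360 FPKM (-0.31 ± 0.08, adjusted p = 0.234). These 3 did not overlap between the groups. Of 30 cell cycle genes tested, 4 had a difference above 0, with a median of -0.09 (-0.04 without WT ZT4 replicate 3). At an unadjusted p under 0.05 from limma, 4 were lower (all genes, 4.07%). None passed (limma, smallest adjusted p = 0.304). Ccne2, a cyclin of the entry into DNA synthesis, was at 14.6, 14.97, 19.3 and 14.5 FPKM in WT ZT4 and at 14.3, 12.8, 11.9 and 12.6 in LKO ZT4 (-0.27 ± 0.08, adjusted p = 0.304). The highest LKO value was just below the lowest WT value.

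Targets of NF-kappaB and STAT3, transcription factors of inflammatory signals, had a difference above 0 in 2 of 23 tested genes, with a median of -0.12. It was -0.04 without LKO ZT4 replicate 1, -0.25 without replicate 4 and -0.29 without replicates 2 and 4. No member passed (limma, smallest adjusted p = 0.391). At an unadjusted p under 0.05, 2 were lower (all genes, 4.07%) and 1 was higher (all genes, 6.21%). The list mean was -0.62, -0.32, -0.02 and 0.28 log2 in LKO ZT4 replicates 1 to 4 and -0.16 to 0.18 in WT ZT4, so the groups overlapped. Collagens had a difference above 0 in 4 of 15 genes (median -0.09), ribosome biogenesis genes in 5 of 28 (median -0.07) and paraspeckle and nuclear RNAs in 0 of 9 (median -0.10). With the same summed FPKM these medians were -0.17, -0.14 and -0.17. That of ribosome biogenesis was -0.14 when LKO ZT4 replicate 1 or WT ZT4 replicate 4 was left out, -0.02 when LKO ZT4 replicate 3 or WT ZT4 replicate 2 was left out, and -0.05 when WT ZT4 replicate 3 was. In these 3 lists no gene passed (limma), and 1, 0 and 1 genes were lower at an unadjusted p under 0.05 (all genes, 4.07%). Neat1, the RNA scaffold of paraspeckles, was at 46.9, 76.5, 35.6 and 59.0 FPKM in WT ZT4 and at 30.2, 44.5, 30.8 and 40.8 in LKO ZT4 (-0.53 ± 0.21, adjusted p = 0.407), with overlap.

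The clock of the myotubes themselves showed no gene that passed. Bmal1, listed as Arntl, was at 7.88, 7.50, 4.64 and 5.22 FPKM in WT ZT4 and at 7.51, 4.82, 6.26 and 5.15 in LKO ZT4 (-0.07 ± 0.15, adjusted p = 0.921). The deletion was in the donors' liver, so these values do not check it. Of 19 core clock genes tested, 9 had a difference above 0, the median was -0.01, and none had an unadjusted p under 0.05 (limma, smallest adjusted p = 0.682). Dbp, a clock output factor, was at 2.84 ± 0.924 and 3.20 ± 0.553 FPKM (0.15 ± 0.15, adjusted p = 0.782).

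Muscle genes were close between the groups. Of 40 sarcomere genes, 29 had a difference above 0, with a median of 0.06 that turned to -0.05 without LKO ZT4 replicates 2 and 4, to -0.004 without replicate 2 and to -0.02 with all libraries scaled to the same summed FPKM. It was 0.12 without LKO ZT4 replicate 1. By limma no gene of the list passed (smallest adjusted p = 0.441), and 1 was higher at an unadjusted p under 0.05 (all genes, 6.21%). Myom2, a protein of the sarcomere M-band, was at 61.1 ± 3.78 and 69.0 ± 3.26 FPKM (0.17 ± 0.07, adjusted p = 0.441). Myh8, the perinatal myosin heavy chain, was at 6.65 ± 1.36 and 8.41 ± 1.77 FPKM (0.29 ± 0.17, adjusted p = 0.579). Both overlapped between the groups. Receptors for serum factors had a difference above 0 in 10 of 24 genes (median -0.02, and -0.08 to 0.04 over the alternatives), insulin and IGF signalling genes in 4 of 17 (median -0.05, -0.11 to -0.03) and FoxO and atrophy genes in 9 of 15 (median 0.01, -0.06 to 0.07). Mt1 and Mt2 encode metallothioneins, which bind zinc, and were highest in LKO ZT4 replicates 3 and 4. Of 5 metallothionein and zinc response genes tested, only these 2 had a difference above 0 (median -0.04, and -0.10 to 0.06 over the alternatives). Mt1 was at 368, 433, 350 and 367 FPKM in WT ZT4 and at 484, 381, 658 and 692 in LKO ZT4 (0.51 ± 0.18, adjusted p = 0.347).

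Night serum of the same genotypes was used to ask which differences held at both times. The test was the LKO minus WT difference at ZT4 minus that at ZT16. It passed in 11 genes (0.0932%), of which 10 had the larger value at ZT4 (0.0847%) and 1 the smaller (0.00847%). For Snhg6 the difference was 0.76 at ZT4 and -0.51 at ZT16, from 73.9 ± 7.44 FPKM in WT ZT16 and 51.5 ± 4.95 in LKO ZT16 (1.27 ± 0.14, limma, adjusted p = 0.000591). It passed under all 26 alternatives run for it. Rps27rt was at 4964 ± 251 FPKM in WT ZT16 and 2807 ± 131 in LKO ZT16, so its difference was -0.82 at ZT16 against 0.67 at ZT4 (1.49 ± 0.17, adjusted p = 0.000591). Rps21 differed by 0.70 at ZT4 and -0.88 at ZT16 (1.58 ± 0.21, adjusted p = 0.00346). The ribosomal genes Rpl38 (0.64 and -1.002), Rpl39 (0.31 and -0.72) and Rpl34-ps1 (0.57 and -0.56) and the predicted gene Gm12191 (0.21 and -0.40) had the same pattern of signs. Slirp, a mitochondrial RNA-binding protein, differed by 0.39 and -0.74, Cox7a2, a subunit of complex IV, by 0.30 and -0.39, and Tmem208, an ER protein, by 0.25 and -0.32. Chpt1, the enzyme that makes phosphatidylcholine from diacylglycerol, went the other way. It was at 23.1 ± 2.33 and 20.0 ± 0.527 FPKM at ZT4 and at 19.3 ± 0.632 and 24.2 ± 0.971 at ZT16 (-0.51 ± 0.09, adjusted p = 0.0268). Rps27rt and Rps21 also passed under all 26 alternatives, Rpl34-ps1 and Rpl39 under 25 of 26, and Gm12191 and Slirp under 24 of 26. Tmem208 and Rpl38 passed under 16 of 26, Chpt1 under 14 of 27 and Cox7a2 under 10 of 26. Of the 11 genes, 9 have annotated transcripts with a median length under 600 nt. With the length trend removed from each library, all 11 passed again, in a total of 12 (limma). With only transcripts of at least 1000 nt, 1 of the 11 could be tested, Chpt1, and 0 genes passed by limma (Chpt1, adjusted p = 0.148).

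No ER chaperone passed for the difference between times (limma, 0 of 16). Hspa5 differed by 1.18 ± 0.37 at ZT4 and by 1.17 ± 0.37 at ZT16, and the difference between the times was 0.01 ± 0.52 (limma, adjusted p = 0.995). Sdf2l1 differed by 1.41 and 1.37 (0.04 ± 0.57 between the times, adjusted p = 0.99). The median over the 16 ER chaperones was 0.69 at ZT4 and 0.73 at ZT16, and that of cholesterol genes was 0.25 and 0.41. The standard errors leave room for a difference between times in either direction. The interferon list had medians of 0.20 and 0.18, and Isg15 was 0.72 higher at ZT4 and 0.46 at ZT16 (0.26 ± 0.19 between the times, adjusted p = 0.683). For lysosomal genes the medians were 0.11 and 0.01, for FGF and ERK feedback genes -0.11 and -0.07, and for Fgf2 the differences were -0.68 and -0.09 (-0.59 ± 0.20 between the times, adjusted p = 0.310). Medians changed sign for small-subunit (0.12 and -0.23) and large-subunit ribosomal proteins (0.08 and -0.23) and for proteasome subunits (0.10 and -0.06). So did those of complex I (0.14 and -0.17) and complexes II to V (0.08 and -0.18). The genotype difference in the level of short relative to long transcripts changed sign too. The level (mean ± SD) was -0.04 ± 0.03 log2 in WT ZT4 and 0.04 ± 0.15 in LKO ZT4. At ZT16 it was 0.05 ± 0.04 in WT and -0.05 ± 0.05 in LKO. Summed FPKM was 638699 to 665665 in WT ZT16 and 581966 to 613524 in LKO ZT16. At ZT4 its ranges overlapped (594811 to 624213 in WT, 603351 to 691771 in LKO). How far these shifts account for the medians at ZT16 was not tested. Medians were 0.23 and 0.10 for ER translocation and 0.19 and 0.07 for glycolysis and hypoxia. They were 0.32 and 0.25 for disulfide isomerases, and 0.33 and 0.30 for sensors and ER degradation. Krtcap2 and Cope differed by 0.03 and 0.01 at ZT16, against 0.43 and 0.40 at ZT4, and for neither did the difference between the times pass (adjusted p = 0.138 and 0.149).

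**Figure D5:**
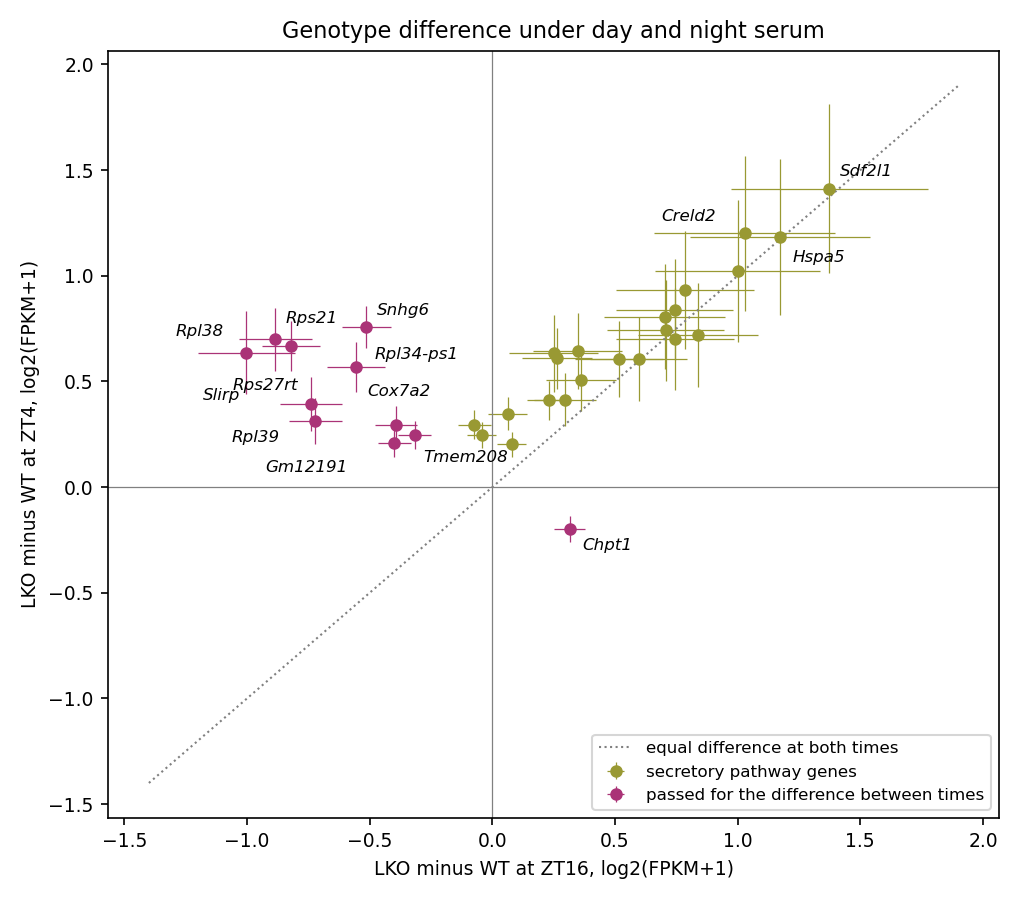
LKO minus WT at ZT16 (horizontal axis) against ZT4 (vertical axis), log2(FPKM+1), with bars of ± 1 SE. The 11 genes that passed for the difference between the times lie far from the line of equal differences, with Snhg6 at 0.76 and -0.51. The other named secretory genes lie near the line or above it, with Hspa5 at 1.18 and 1.17.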

How the data were processed

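Poly-A RNA of C2C12 myotubes was sequenced in 16 libraries. The authors deposited 1 table of FPKM. Per the submitters' processing notes FastQC 0.11.8 and STAR were used, and the builds mm10 and GRCm39 are named. The sources used here do not give the program and annotation behind FPKM. Of its 24346 genes, 27 carried date symbols and were left unnamed.

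Tests covered the 11802 genes whose FPKM averaged 0.5 or more in the 16 libraries, on log2(FPKM+1) with no further scaling. Limma 3.58.1 in R 4.3.3 fitted 4 groups in 1 model (lmFit, then eBayes with a mean trend, on 12 residual degrees of freedom), with adjustment by Benjamini-Hochberg over all tested genes. No counts were at hand, so the depth behind each gene is unknown. Relative depth was read from the smallest steps of FPKM times transcript length. Lengths were medians of GENCODE M21 transcripts and were found for 96.3% of tested genes. Promoter windows came from RefSeq (GRCm38.p6).

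The comparison, the 46 gene lists and the rules were chosen with earlier results of these data known. Genes were named where they passed, where they were among the 10 higher or 10 lower with the smallest p, among the 6 smallest p of a described list, or on a short fixed list of clock, stress and lipid genes. Rnaset2a is outside this rule. Of predicted genes only Gm12191 is named, which passed for the difference between times. Alternatives tried were a pseudocount of 0.1, no filter, a mean of at least 2 FPKM, 2 scalings, library weights, a fit of the 2 groups alone, a replicate block, transcripts of at least 1000 nt, removal of a trend with length, and leaving out each library. A block by column-name numbers and the omission of LKO ZT4 replicates 2 and 4 were added after seeing the data. The fit was tested on simulated data with 50 changed genes among 11802. It found 16% of changes of 0.25 log2, 84% of those of 0.5 and 98% of those of 1, with 3 false calls. Figures were drawn with Python 3.11.15 and matplotlib 3.10.9.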

Additional observations from a re-analysis of the deposited data

Results flagged for a closer look

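In 117 named genes, each with 2 groups of 4 libraries, 1 library lay far from the other 3 in 17 of 234 groups, by Dixon's test at the 95% level. Chance gives about 1 in 20 groups.

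WT ZT4 replicate 2 was the far library in 6 of these. It held the stress genes Ddit3 (40.8 FPKM, others 17.3 to 19.6), Trib3 (68.8, others 10.5 to 17.1), Chac1 (130, others 34.9 to 48.8) and Gdf15 (53.8, others 24.8 to 29.6), the autophagy receptor Sqstm1 (257, others 195 to 202) and Plin2 (663, others 588 to 600). LKO ZT4 replicate 1 was the far library for Sqstm1 (464 FPKM, others 227 to 249), Edem2 (19.6, others 13.6 to 14.4), the sterol reductase Tm7sf2 (14.8, others 9.65 to 10.3) and, as the lowest, Kansl1l (2.92, others 3.53 to 3.63). The rest were spread over libraries. Rpl12 was at 2823 FPKM in LKO ZT4 replicate 4, Wdhd1 at 11.9 in LKO ZT4 replicate 2, Rpl34-ps1 at 1414 and Eml1 at 24.6 in WT ZT4 replicate 1, Ccne2 at 19.3 in WT ZT4 replicate 3 and Ssr4 at 164 in WT ZT4 replicate 4. Rnaset2a was at 1.16 FPKM in WT ZT4 replicate 3, far above 0.000491 to 0.00599 in the other 3.

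The genotype difference itself differed between day and night serum in 11 genes (limma, the difference at ZT4 minus that at ZT16). This value was 1.27 for Snhg6, 1.49 for Rps27rt, 1.58 for Rps21, 1.12 for Rpl34-ps1, 1.04 for Rpl39, 0.61 for Gm12191, 1.13 for Slirp, 0.56 for Tmem208, 1.64 for Rpl38, -0.51 for Chpt1 and 0.69 for Cox7a2.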

How the results depend on the processing

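The count of genes that passed at ZT4 (1) was 0 without the filter, with libraries scaled to 1 sum, or with transcripts of at least 1000 nt, 2 with a mean of at least 2 FPKM, 3 with library weights and 97 (68 higher, 29 lower) without LKO ZT4 replicates 2 and 4. Leaving out single libraries gave 0 to 16. The 16 came without LKO ZT4 replicate 1, and 0 without WT ZT4 replicates 1, 3 or 4 or LKO ZT4 replicates 3 or 4. With only the 2 groups compared, 1 gene passed, and it was Rnaset2a, not Snhg6. For the difference between times (11 genes), the count was 3 with no filter, 23 with a mean of at least 2 FPKM, 17 with libraries scaled to 1 sum, 127 with library weights and 0 with transcripts of at least 1000 nt, which leaves 10 of the 11 genes, Snhg6 among them, untested. Leaving out single libraries gave 6 (LKO ZT16 replicate 1) to 109 (LKO ZT4 replicate 1), with 39 without LKO ZT4 replicate 3. The cause was not tested. Removal of the length trend left 1 and 12. With the replicate number of the titles as a block, 1 gene passed at ZT4 and 6 for the difference between times. With the block by the numbers in the column names, which differ from the titles in 7 libraries, 3 and 12 passed. WT ZT4 and LKO ZT4 libraries that share a title number had correlations of their deviations between -0.09 and 0.11. Of the LKO ZT4 libraries, replicate 4 correlated best with the WT library of its own title number. By the column names those numbered 3 and 4 did (0.10 and 0.11). With 4 libraries per group this check cannot tell whether the numbers mark a pairing. Signs turned in genes with small differences. Leaving out single libraries gave Chac1 (-0.08) values from -0.289 to 0.331, Trib3 (0.41) from -0.0244 to 0.983, Arntl (-0.07) from -0.181 to 0.0376 and Per2 (-0.07) from -0.149 to 0.0086. With library weights Chac1 was at 0.0302 and Per2 at 0.0187. Without LKO ZT4 replicates 2 and 4 Arntl was at 0.131 and Clock (-0.13) at 0.0612. Scaling to 1 sum moved the median of all genes to -0.07.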

Other observations

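Rnaset2a, which encodes a lysosomal ribonuclease and has a near-identical copy in the mouse genome, was chosen after its values were seen. It was at 0.000491, 0.00153, 1.16 and 0.00599 FPKM in WT ZT4 and at 16.2, 9.08, 15.4 and 14.9 in LKO ZT4. The groups did not overlap (3.59 ± 0.82 log2, limma, adjusted p = 0.203, and 0.000442 with only these 2 groups fitted). At ZT16 it was at 6.24 ± 6.68 FPKM in WT and 5.30 ± 6.16 in LKO, so high and low libraries occurred in both genotypes. The counting may split its reads with the copy, and the part of this in the values was not tested.

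NRF2 antioxidant genes, which detoxify oxidants, had a difference above 0 in 20 of 25 tested genes (median 0.06). The median was 0.09 without LKO ZT4 replicate 3 or 4, 0.13 without replicates 2 and 4, 0.01 with only transcripts of at least 1000 nt and -0.02 with the same summed FPKM. None passed (limma, smallest adjusted p = 0.375). At an unadjusted p under 0.05, 4 were higher (all genes, 6.21%) and 1 was lower (all genes, 4.07%). Gsta4, a glutathione transferase, was at 19.8, 31.8, 26.7 and 34.8 FPKM in WT ZT4 and at 92.2, 43.5, 39.9 and 30.03 in LKO ZT4 (0.74 ± 0.33, adjusted p = 0.460). Srxn1, the reductase of peroxiredoxins, was at 28.7 ± 1.34 and 39.2 ± 12.01 FPKM (0.40 ± 0.16, adjusted p = 0.409). Akr1b3, an aldose reductase, was lower, at 31.9, 46.9, 38.9 and 30.01 FPKM in WT ZT4 and at 23.0, 26.8, 6.01 and 31.3 in LKO ZT4 (-0.92 ± 0.34, adjusted p = 0.375). All 3 overlapped between the groups.

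Without LKO ZT4 replicates 2 and 4, 97 genes passed by limma, 68 of them higher (0.576% of the genes tested). Of the gene lists, ER translocation had 4 of 30 members among the higher ones, disulfide isomerases and oxidases 2 of 15, sensors and ER degradation 2 of 18, ER chaperones 1 of 16, glycolysis and hypoxia 3 of 24, and the small nucleolar RNA host, interferon and lysosomal lists 1 each. The other genes that passed as higher were in none of the lists. That fit compares 2 LKO libraries, of which replicate 1 was the highest for ER chaperones, with 4 WT libraries, and it leaves out replicate 4, which was the lowest.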
